A study of Mus musculus with 7 samples.

Results

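The heterogeneous nuclear ribonucleoprotein (hnRNP) genes described here are Hnrnpa1, Hnrnpa2b1, Hnrnpc, Hnrnpd, Hnrnpdl, Hnrnph1, Hnrnph3, Hnrnpk, Hnrnpm and Hnrnpr. Every splicing event that the deposited tables list under these symbols was taken. The genes were chosen by name, with earlier results of these data known. They are 10 of 9060 genes in the tables and hold 37 of 19447 rows for replicate 1 and 41 of 22703 rows for replicate 2. Matching by coordinates gave 42 distinct events: 31 cassette exons (SE), 4 alternative 5′ splice sites (A5SS), 3 alternative 3′ splice sites (A3SS), 2 pairs of mutually exclusive exons (MXE) and 2 retained introns (RI). Of these, 30 had unique coordinates in both tables, 10 were listed in 1 table only, and 2 shared coordinates with another row.

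RNA was sequenced from primary cortical neurons of wild-type ICR mouse embryos at day 16 (E16), kept in culture to day 11. The control group (2 libraries) was exposed for 10 min to a buffer with NaCl, and the KCl group (2 libraries) to the same buffer with KCl in its place at 50 mM, which depolarizes neurons. Both were returned to their old medium and harvested 24 h later, to look for splicing that follows activity. Whether the replicates of a group came from separate cultures is not stated in the labels; p-values therefore reflect the spread among these 4 libraries alone, which may be technical.

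The hnRNP proteins bind nascent transcripts in the nucleus, package them and influence which splice sites are used, often by keeping the splicing machinery away from an exon. Many of their own pre-mRNAs are spliced into forms that are degraded, which lets the proteins set their own levels. In neurons they are also known for carrying mRNAs into dendrites and for aggregates in motor neuron disease, where Hnrnpa1 and Hnrnpa2b1 are mutated in some families.

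Event reads came to between 3566066 and 5385345 per library. The inclusion read share is the reads of the inclusion form in percent of the reads of both forms, and is set side by side only within 1 event. Counting intervals (Wilson, 95%) cover counting error only. The culture was checked against cell type markers on the scale of reads of each gene's best-covered matched event, scaled to library size (CPM). The 7 measured of 15 neuronal markers summed to 6932 and 6952 CPM in control replicates 1 and 2, and to 576 and 2358 CPM in KCl replicates 1 and 2. All 7 were fitted lower in KCl, 3 at an unadjusted p under 0.05 in edgeR's test (12.3% of all genes) and 0 after adjustment. KCl replicate 1 thus stood farthest from the label of a neuronal culture. Values without it are given for the levels and for the hnRNP events with the smallest FDRs of the authors.

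Of the hnRNP events, the one with the smallest FDR in the authors' deposited table lies in Hnrnpk, beside the microRNA that this gene carries. Sequence is shown for Hnrnpk for this reason, and because its first alternative exon opens at an annotated transcript start. The microRNA hairpin of Mir7-1 (chr13:58392779-58392886, minus strand, mm10) ends 302 bases upstream, in the direction of transcription, of the segment listed for that event. Its mature arms, from RefSeq (GRCm38.p6, the same build), follow 5′ to 3′ with the seed, bases 2 to 8, in capitals.
mmu-miR-7a-5p: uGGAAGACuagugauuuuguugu
mmu-miR-7a-1-3p: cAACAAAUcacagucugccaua
The 5p arm has the same sequence in 2 genes of the RefSeq table, so it does not mark Hnrnpk transcripts alone. The 100 bases before the 54-base Hnrnpk exon (chr13:58402118-58402217, minus strand) are given next, with the AG that precedes the exon in capitals.
Hnrnpk, before the 54-base exon: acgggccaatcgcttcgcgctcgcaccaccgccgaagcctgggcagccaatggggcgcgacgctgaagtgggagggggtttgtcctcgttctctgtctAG
A RefSeq transcript of Hnrnpk starts at the first base of this exon, 0 bases away, and starts of Rmi1 on the opposite strand lie 131 and 480 bases further. Whether reads of that shorter transcript enter the inclusion count was not tested.

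No hnRNP event passed the splicing test. Of the 30 matched events, 26 averaged 1 read or more for each form over the 4 libraries and were tested: 17 SE, 3 A5SS, 2 A3SS, 2 MXE and 2 RI. edgeR's quasi-likelihood test called 0 of 26 after Benjamini-Hochberg adjustment, and 0 of all 10088 events tested (0%). At an unadjusted p under 0.05 there were 0 of 26, against 9.20% of all events. Adjusted p ran from 0.640 to 0.998. The log2 odds ratio of inclusion, KCl against control, was fitted above 0 in 11 and below 0 in 15 events, against 51.6% above 0 over all events. Its median was -0.13 for hnRNP events and 0.04 for all, and the median size was 0.60 against 0.79.

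Control and KCl shares were fully separated in 9 of 26 events, against 40.7% of all: both KCl libraries were above both controls in 5 (21.2% of all) and below them in 4 (19.5% of all). A pair of the 5, both in Hnrnpd, overlap and share their skipping reads. The mean log2 odds of replicates 1 and 2 lay farther apart than those of KCl and control in 13 of 26 events, against 45.4% of all. Hnrnpa1, Hnrnpc and the MXE of Hnrnpr are the plainest cases below. How far the marker levels given above move with the shares was not tested.

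**Figure D1:**
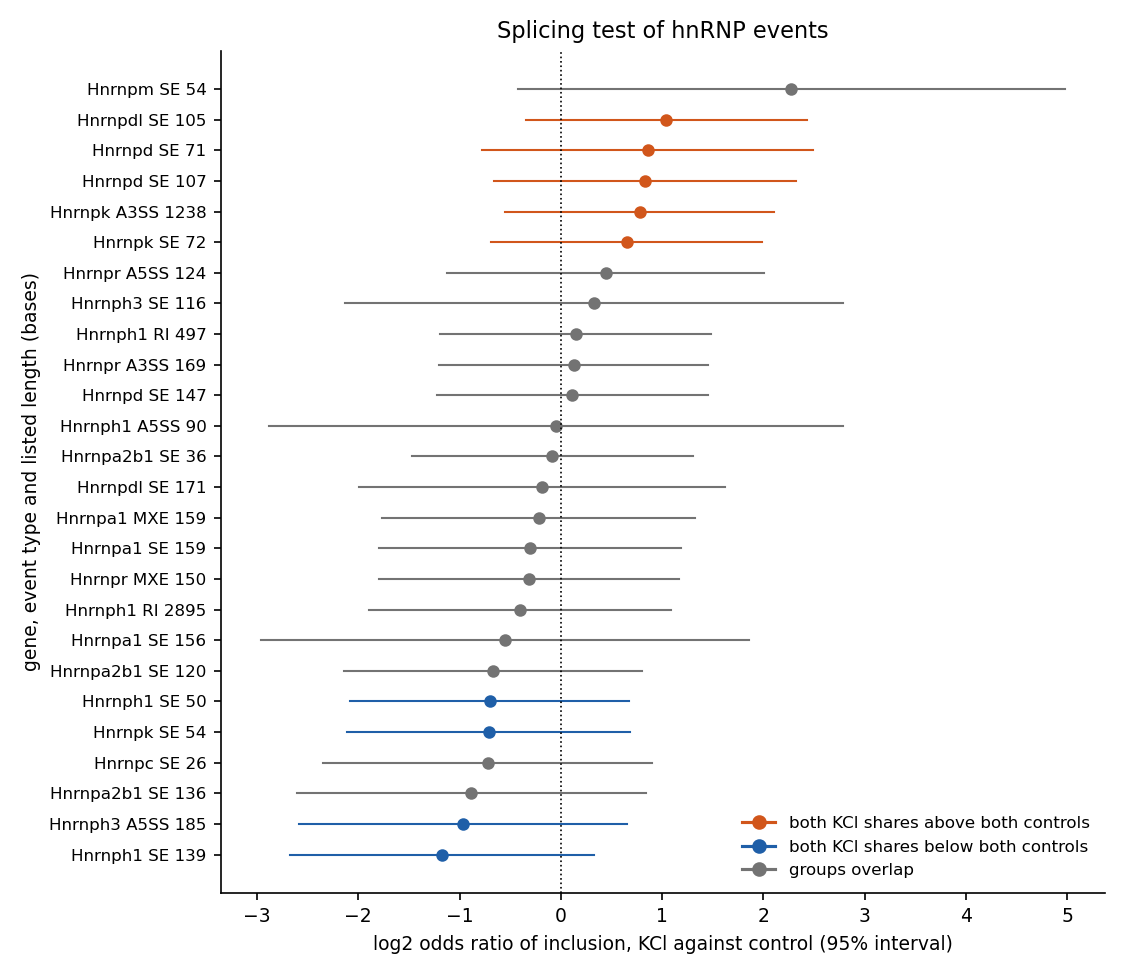
Log2 odds ratio of inclusion, KCl against control, with its 95% interval for each of the 26 tested hnRNP events; orange and blue mark the 5 and 4 events whose KCl shares lay above or below both controls. Every interval spans 0, and the point values run from -1.18 in Hnrnph1 to 2.27 in Hnrnpm.

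Most events had 1 form in large excess. Of the 30 matched events, 12 had shares above 90% in every library (91.2% to 100%), 4 had shares below 10% in every library (0.743% to 5.73%), and 14 were between these in at least 1 library. Cassette exons measured 26 to 302 bases, and 16 of 31 had a length that is a multiple of 3. Such a length keeps the reading frame where the exon lies in coding sequence. It was found in 6 of 9 cassettes above 90%, in 1 of 3 below 10% and in 5 of 8 of the rest. Some genes list events of equal length: Hnrnpd, Hnrnpdl and Hnrnpr each have a cassette of 169 bases, Hnrnph1 and Hnrnph3 one of 139, Hnrnpa2b1 and Hnrnpm one of 36, and Hnrnpk and Hnrnpm one of 54.

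Hnrnpa1 and Hnrnpa2b1 code for core proteins of the hnRNP particle, which bind exonic and intronic silencers. In Hnrnpa1 a cassette exon of 159 bases (chr15:103242922-103243080) had a share of 40.6% in control replicate 1, 21.5% in control replicate 2, 35.0% in KCl replicate 1 and 18.5% in KCl replicate 2. The shares split by replicate number and the groups overlapped. Its log2 odds ratio was -0.30 (SE 0.71, 95% interval -1.79 to 1.18) and the edgeR adjusted p was 0.980. The same exon is also listed as mutually exclusive with one of 156 bases (chr15:103243625-103243780), and that event, with 2188 to 4432 reads per library, gave 10.1% and 3.61% in control and 7.90% and 3.53% in KCl. It split by number as the cassette did. Which of both exons the inclusion reads stand for is not stated, but the MXE shares ranked the 4 libraries as the 159-base cassette did. As a cassette of its own, the 156-base exon had 99.8% to 100% in the 4 libraries, with 0 to 5 skipping reads. The MXE share therefore need not measure a choice between both exons. In control replicate 2, 0 of 1655 reads skipped it, and the counting interval of its inclusion share was 99.77% to 100%.

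In Hnrnpa2b1 the cassette of 36 bases (chr6:51467391-51467426) is the exon that sets the longer B1 protein apart from A2. Its share was 4.72% and 5.11% in control replicates 1 and 2 and 4.29% and 5.04% in KCl replicates 1 and 2, on 783 to 1771 reads. All 4 values lay within 1 percentage point, and the log2 odds ratio was -0.08 (SE 0.66, interval -1.47 to 1.30, edgeR adjusted p 0.990). The interval is far wider than the spread of these shares, since the test shares its estimate of spread over all events. Among events matched in both tables the best covered was a cassette of 120 bases (chr6:51464428-51464547), with 97.2% and 93.1% in control and 94.5% and 91.2% in KCl, and the groups overlapped. A cassette of 136 bases near the end of the gene (chr6:51461920-51462055) had 82.8% and 96.7% in control and 75.5% and 90.5% in KCl, again split by number, with 90 to 319 reads. A cassette of 102 bases was listed for replicate 2 only, with 1 skipping read in each library.

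**Figure D2:**
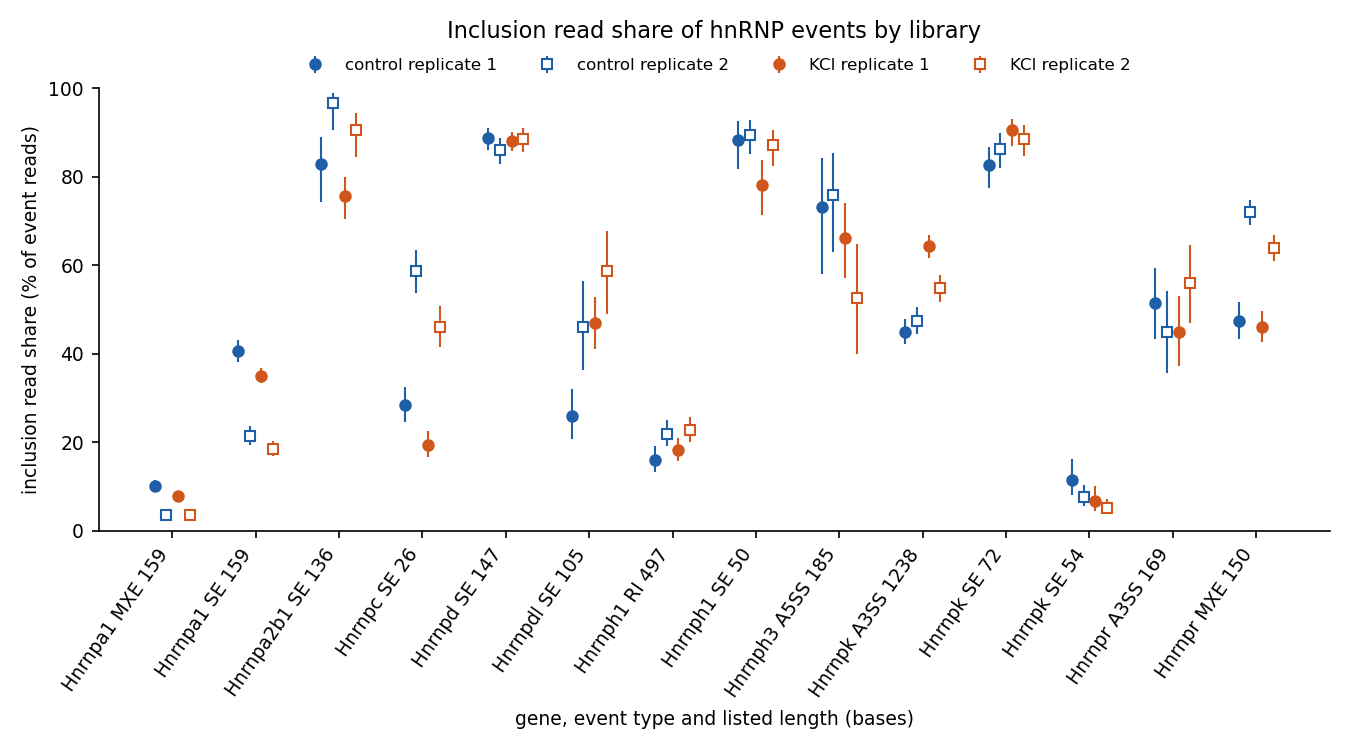
Inclusion read share, in percent of event reads, in each library for the 14 hnRNP events between 10% and 90% in at least 1 library; bars are 95% Wilson intervals for counting error, blue is control, orange is KCl, filled circles are replicate 1 and open squares replicate 2. Hnrnpa1, Hnrnpc and the MXE of Hnrnpr split by replicate number, whereas in the Hnrnpk A3SS both KCl libraries (64.2% and 54.8%) lie above both controls (45.0% and 47.5%).

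Hnrnpc codes for the C1 and C2 proteins, which bind uridine tracts and package long introns. The cassette of 26 bases (chr14:52098015-52098040), which shifts the frame where it lies in coding sequence, had 28.4% in control replicate 1, 58.7% in control replicate 2, 19.5% in KCl replicate 1 and 46.1% in KCl replicate 2. Replicate 2 was higher than replicate 1 in both groups. The log2 odds ratio was -0.72 (SE 0.78, interval -2.35 to 0.90, edgeR adjusted p 0.901). The authors' deposited table gives it a p of 0.0374 and an FDR of 0.698 in replicate 1. The other 3 Hnrnpc events overlap each other at 302 and 277 bases and were each listed in 1 table only. As cassettes in replicate 1 they had 0 or 1 skipping reads, and as an A3SS in replicate 2 the share was 2.35% in control and 2.44% in KCl.

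Hnrnpd (AUF1) and Hnrnpdl code for related proteins that bind AU-rich mRNA. In Hnrnpd the cassette of 147 bases (chr5:99963731-99963877), which sets the longer apart from the shorter AUF1 protein forms, had 88.8% and 86.1% in control replicates 1 and 2 and 88.1% and 88.6% in KCl replicates 1 and 2. These values lay within 3 percentage points and the groups overlapped. This gave a log2 odds ratio of 0.11 (SE 0.64, interval -1.22 to 1.45, edgeR adjusted p 0.990). Nearer the gene's end, a cassette of 107 bases (chr5:99962098-99962204) had 1.56% and 1.48% in control and 2.73% and 2.65% in KCl, from 10, 12, 21 and 20 inclusion reads. Both KCl libraries were above both controls, and the log2 odds ratio was 0.83 (SE 0.71, interval -0.66 to 2.33, edgeR adjusted p 0.841). A version of 71 bases lies within it and has the same skipping reads, so it is no second measurement; it had 0.943% and 0.743% in control and 1.71% and 1.34% in KCl.

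The length of the Hnrnpdl cassette of 105 bases (chr5:100035635-100035739) keeps the frame where it lies in coding sequence. Its share was 26.0% in control replicate 1, 46.2% in control replicate 2, 46.9% in KCl replicate 1 and 58.7% in KCl replicate 2. Both KCl shares were above both controls, though KCl replicate 1 was above control replicate 2 by less than their counting intervals (41.1% to 52.8% and 36.3% to 56.3%). The means were 36.1% ± 14.3 (SD, n = 2) and 52.8% ± 8.30 (SD, n = 2). The log2 odds ratio was 1.04 (SE 0.66, interval -0.35 to 2.43), with an edgeR adjusted p of 0.714. The authors' deposited table gives an FDR of 0.0251 in replicate 1 and of 1 in replicate 2. With 1 library left out the log2 odds ratio ran from 0.36 without control replicate 1 to 1.65 without control replicate 2, and was 1.41 without KCl replicate 1 (edgeR adjusted p 0.878). The Hnrnpdl cassette of 171 bases (chr5:100036481-100036651), the best covered of the matched ones, had 99.5% in both controls and 99.7% and 99.1% in KCl, with 4 to 7 skipping reads.

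Hnrnph1 and Hnrnph3 code for proteins that bind runs of guanines. In Hnrnph1 a cassette of 139 bases (chr11:50381459-50381597), whose skipping shifts the frame where it lies in coding sequence, had 99.3% and 98.5% in control replicates 1 and 2 and 97.8% and 97.3% in KCl replicates 1 and 2. Both KCl libraries were below both controls, from 7 and 30 skipping reads in control and 25 and 50 in KCl. The log2 odds ratio was -1.18 (SE 0.72, interval -2.68 to 0.32, edgeR adjusted p 0.685). An RI event with a listed segment of 2895 bases (chr11:50379821-50382715) spans this exon and has the same skipping reads in all 4 libraries. Its skipping form thus cannot be told apart from skipping of the exon, and its share need not measure retention of an intron. That share was 99.3% and 98.8% in control and 99.03% and 98.3% in KCl. The other RI (chr11:50379468-50379964, 497 bases) had 16.02% and 21.9% in control and 18.2% and 22.8% in KCl, which overlapped. A cassette of 50 bases (chr11:50385141-50385190) had 88.2% and 89.5% in control and 78.1% and 87.1% in KCl. Both KCl shares were lower, KCl replicate 2 by little, and the log2 odds ratio was -0.70 (SE 0.66, interval -2.08 to 0.68, edgeR adjusted p 0.871).

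The Hnrnph3 cassette of 116 bases (chr10:63017222-63017337) had 98.8% to 100% in the 4 libraries, with 0 to 6 skipping reads. Its A5SS with a listed segment of 185 bases (chr10:63018041-63018225) had 73.2% and 75.9% in control and 66.1% and 52.5% in KCl, on 41 to 115 reads. Both KCl libraries were below both controls. A log2 odds ratio of -0.97 (SE 0.77, interval -2.59 to 0.65, edgeR adjusted p 0.817) was fitted. The 139-base cassette has 3 rows that share coordinates, with shares of 88.7% to 100%, and was not tested. A cassette of 96 bases, listed for replicate 1 only, lies in a stretch where the model of Rufy2 overlaps Hnrnph3.

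Hnrnpk codes for a protein with KH domains that binds cytidine-rich RNA. Its A3SS with a listed segment of 1238 bases (chr13:58391239-58392476), which ends 107 bases before the end of the gene model, is the event beside the hairpin of miR-7a. The inclusion form had 532 and 467 reads and the other form 651 and 516 in control replicates 1 and 2, against 868 and 581 and 483 and 480 in KCl. That gave 45.0% (counting interval 42.2% to 47.8%) and 47.5% (44.4% to 50.6%) in control, and 64.2% (61.7% to 66.8%) and 54.8% (51.8% to 57.7%) in KCl. Neither KCl interval reached a control interval, and the KCl libraries also differed from each other beyond counting error. The means were 46.2% ± 1.79 (SD, n = 2) and 59.5% ± 6.71 (SD, n = 2), a difference of 13.3 percentage points. Across libraries the log2 odds ratio was 0.78 (SE 0.64, interval -0.55 to 2.11) (edgeR p 0.236, adjusted p 0.824). The authors' deposited table gives an FDR of 1.02e-10 in replicate 1 and of 1 in replicate 2. Such a value compares the reads of 2 libraries and not the conditions. Without KCl replicate 1 the log2 odds ratio was 0.49 (edgeR adjusted p 0.947).

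Of hnRNP rows, 2 of 37 had an FDR under 0.05 in the authors' deposited table for replicate 1 (2.26% of all its rows), namely this event and the Hnrnpdl cassette of 105 bases. In the authors' deposited table for replicate 2 there were 0 of 41 (0.828% of all its rows). The 72-base cassette of Hnrnpk (chr13:58396188-58396259) had 82.6% and 86.4% in control and 90.5% and 88.6% in KCl, both KCl libraries above both controls. Its log2 odds ratio was 0.65 (SE 0.64, interval -0.69 to 1.99, edgeR adjusted p 0.882). The 54-base exon that follows the bases printed above had 11.5% and 7.64% in control and 6.79% and 5.20% in KCl, from 22 to 35 inclusion reads. Both KCl libraries were below both controls, with a log2 odds ratio of -0.71 (SE 0.67, interval -2.11 to 0.69, edgeR adjusted p 0.872). The Hnrnpk events thus had 2 with higher and 1 with lower shares in KCl, none past the test.

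Hnrnpm codes for a protein that binds GU-rich RNA. Its cassette of 54 bases (chr17:33652273-33652326) had the smallest unadjusted p of the hnRNP events, 0.0941. The share was 91.7% in control replicate 1, 100% in control replicate 2, 99.6% in KCl replicate 1 and 96.7% in KCl replicate 2, from 8, 0, 1 and 2 skipping reads, and the groups overlapped. Its log2 odds ratio was 2.27 (SE 1.29, interval -0.43 to 4.98, edgeR adjusted p 0.640). The sign rests on control replicate 1: without it the value was -1.79. The A5SS of 192 bases and the cassette of 36 bases share an edge and had 0 or 1 skipping reads per library, too few to test.

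Hnrnpr codes for a protein that binds mRNA in axons. Its MXE pairs exons of 150 and 122 bases (chr4:136336298-136336447 and chr4:136339176-136339297). The share was 47.5% in control replicate 1, 72.1% in control replicate 2, 46.1% in KCl replicate 1 and 63.9% in KCl replicate 2, on 541 to 1012 reads. It split by replicate number, and the log2 odds ratio was -0.31 (SE 0.71, interval -1.79 to 1.16, edgeR adjusted p 0.980). As cassettes both exons had 0 to 2 skipping reads per library, so nearly all reads included each of them. The MXE share therefore need not measure a choice between both exons. The A3SS with a listed segment of 169 bases (chr4:136314087-136314255) had 51.4% and 44.9% in control and 45.0% and 55.9% in KCl, and the groups overlapped. The same coordinates are listed as a cassette in 4 rows, with shares of 83.1% to 98.3%, which were not tested because the rows cannot be told apart.

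The remaining events had little of 1 form. Of the 10 events listed in 1 table only, 4 in replicate 1 and 6 in replicate 2, 9 had shares of 99.4% or more with at most 2 skipping reads; the A3SS of Hnrnpc was the exception. Their shares in the other replicate are not measured here.

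Levels of hnRNP genes were higher in KCl in the fit for every gene, but no gene passed the test, which holds no block for the replicate number. On the scale of CPM of the best-covered event, Hnrnpa1 had 1525 in control replicate 1, 1470 in control replicate 2, 3033 in KCl replicate 1 and 2003 in KCl replicate 2. Both KCl libraries were above both controls, and the log2 fold change was 0.75 (SE 0.40, interval -0.20 to 1.70, edgeR adjusted p 0.502). Hnrnph3 had 206, 279, 485 and 346 CPM in the same order, again without overlap, with a log2 fold change of 0.78 (SE 0.41, interval -0.20 to 1.75, edgeR adjusted p 0.5003). Hnrnph1 had 662, 1385, 1766 and 1709 CPM and a log2 fold change of 0.76 (SE 0.46, interval -0.33 to 1.86, edgeR adjusted p 0.564). Here the controls differed more from each other than the KCl libraries did. This level came from the RI of 2895 bases alone. The RI of 497 bases, which overlaps it, also had both KCl libraries higher (log2 fold change 0.40). The other matched Hnrnph1 events overlapped between groups. Scaled over events, the 139-base cassette had 471 and 698 CPM in control and 501 and 707 CPM in KCl (log2 fold change 0.05). The log2 fold change was 0.22 for the 50-base cassette and 0.15 for the A5SS. Levels are not compared between genes, because effective lengths are not given.

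The other 7 genes overlapped between groups. Hnrnpa2b1 had 740 and 349 CPM in control and 1629 and 487 CPM in KCl, with the largest fitted change of the 10 genes, a log2 fold change of 0.96 (SE 0.65, interval -0.58 to 2.50, edgeR adjusted p 0.624). Hnrnpc had 332 and 216 CPM in control and 481 and 252 CPM in KCl. In both genes each replicate 1 library exceeded its replicate 2 counterpart, as it did in Hnrnpa1, Hnrnpd, Hnrnpdl and Hnrnpk. Hnrnpdl had 549 and 463 CPM in control against 820 and 462 in KCl, and Hnrnpk had 825 and 527 against 924 and 600. The smallest fitted change was that of Hnrnpd, with 446 and 436 CPM in control and 527 and 427 CPM in KCl and a log2 fold change of 0.11 (interval -0.78 to 1.00). Hnrnpm had 165 and 175 CPM against 237 and 174, and Hnrnpr had 378 and 661 against 523 and 694. The Hnrnpm value is that of its A5SS of 192 bases. Scaled over events, the same reads gave 113 and 115 CPM against 156 and 118, without overlap. The intervals of the fold changes were wide, from -0.70 to 1.55 on the log2 scale for Hnrnpc and from -0.86 to 1.20 for Hnrnpk. Changes within an interval cannot be told apart by this fit.

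**Figure D3:**
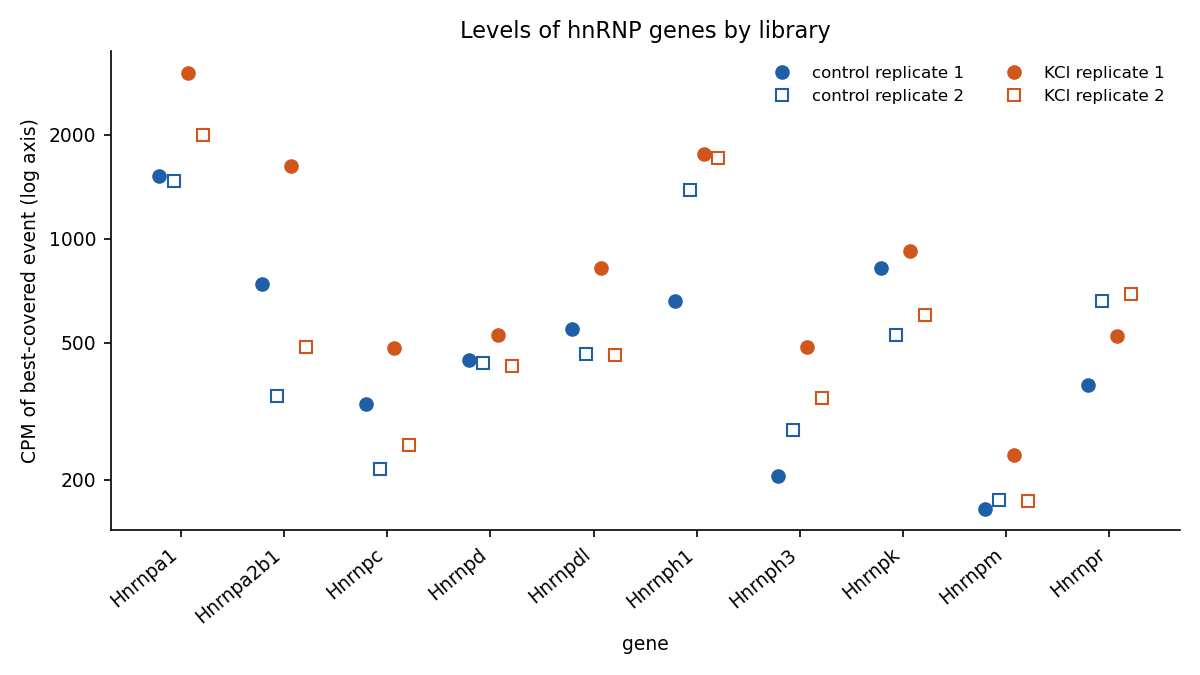
CPM of the best-covered event of each hnRNP gene in each library, on a log axis; blue is control, orange is KCl, filled circles are replicate 1 and open squares replicate 2. Groups do not overlap in Hnrnpa1, Hnrnph1 and Hnrnph3, and KCl replicate 1 is the highest library in 9 of 10 genes.

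In counts, edgeR called 0 of 10 genes, as it called 0 of all 6117 (0%). At an unadjusted p under 0.05 there were 0 of 10, against 12.3% of all genes. All 10 were fitted above 0, against 52.5% of all genes, with a median log2 fold change of 0.38 against 0.04. Groups did not overlap, with KCl higher, in 3 of 10, against 22.0% of all genes. Over the 30 matched events, edgeR called 0 for their summed reads, as it called 0 of all 11814 (0%), with 0 at an unadjusted p under 0.05 against 10.9% of all. All 30 were fitted above 0 (51.2% of all events), and 12 of 30 had both KCl libraries above both controls (20.5% of all). The 30 events lie in 10 genes and are not separate measurements. Some of the 12 overlap, such as the A5SS and the 36-base cassette of Hnrnpm, which have the same skipping reads. The smallest p, 0.0567, was that of the 136-base cassette of Hnrnpa2b1, with a log2 fold change of 1.31 (SE 0.58, edgeR adjusted p 0.468).

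KCl replicate 1 carried much of the difference. It exceeded both controls in 9 of 10 genes, and KCl replicate 2 did so in 4 of 10. Without KCl replicate 1, 5 of 10 genes and 19 of 30 events were fitted higher. The log2 fold changes were then -0.15 for Hnrnpa2b1, -0.11 for Hnrnpc, -0.03 for Hnrnpd, -0.12 for Hnrnpdl and -0.16 for Hnrnpk. Those of the genes without overlap were 0.43 for Hnrnpa1, 0.76 for Hnrnph1 and 0.53 for Hnrnph3. The value of Hnrnph1 moved with the controls, to 0.33 without control replicate 1 and 1.39 without control replicate 2, and was 0.41 with all its events summed. These values set KCl replicate 2 against both controls; against control replicate 2 alone its CPM was 1.39 times as high in Hnrnpa2b1, 1.17 in Hnrnpc, 1.14 in Hnrnpk, 0.98 in Hnrnpd and 0.996 in Hnrnpdl. The share of matched event reads in hnRNP genes showed the same order of libraries: it was 0.832% and 0.825% in control replicates 1 and 2 and 1.39% and 1.02% in KCl replicates 1 and 2. The means were 0.828% ± 0.00506 (SD, n = 2) and 1.20% ± 0.259 (SD, n = 2), with an exact two-sided permutation p of 0.333, the smallest that 2 against 2 libraries allow.

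**Figure D4:**
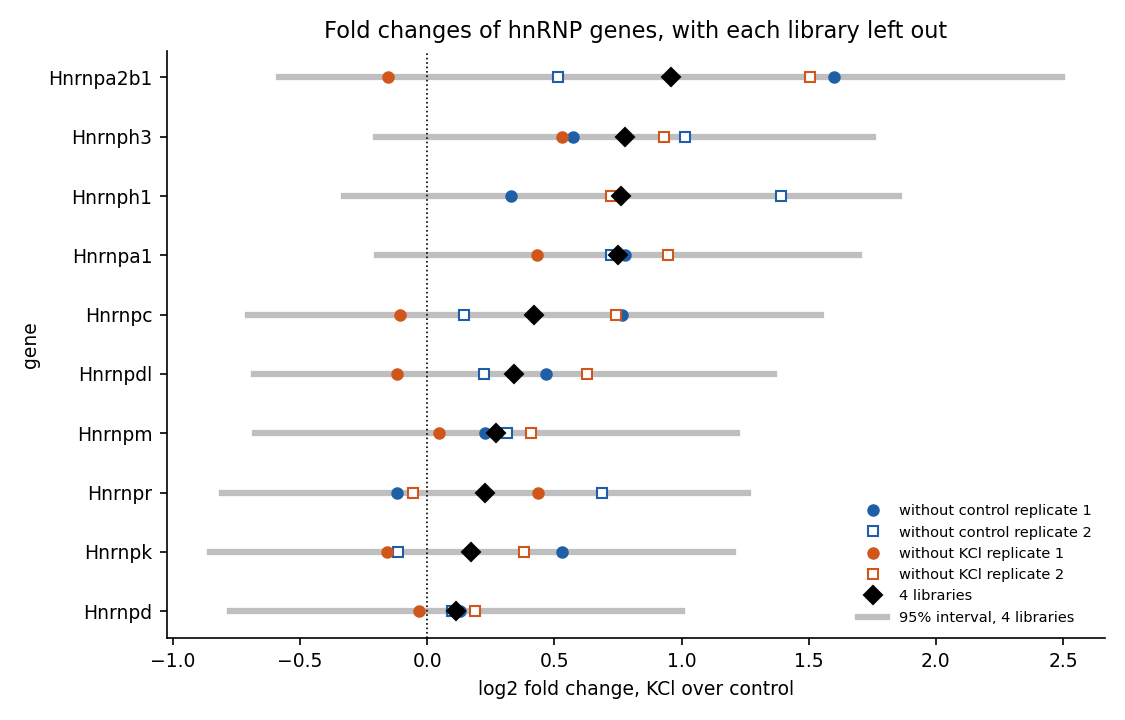
Log2 fold change of each hnRNP gene, KCl over control, from all 4 libraries (black, with its 95% interval in grey) and with 1 library left out (coloured). Without KCl replicate 1 the values of Hnrnpa2b1, Hnrnpc, Hnrnpd, Hnrnpdl and Hnrnpk fall below 0, the lowest at -0.16.

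Markers of several cell types moved with the groups in the same libraries. The CPM of the 10 hnRNP genes summed to 5827 and 5962 in control replicates 1 and 2 and to 10426 and 7154 in KCl replicates 1 and 2, while the neuronal sum given above was lowest in KCl replicate 1. The 5 measured of 9 astrocyte markers summed to 2980 and 2308 CPM in control and to 4132 and 3059 CPM in KCl, all 5 fitted higher and 2 at an unadjusted p under 0.05. The 5 measured of 10 oligodendrocyte lineage markers summed to 317 and 341 CPM in control and 1996 and 1094 CPM in KCl, with 4 of 5 at an unadjusted p under 0.05. The 3 measured of 8 vascular and mesenchymal markers summed to 431 and 517 CPM against 2901 and 2239 CPM, with 2 of 3 at such a p. The 4 measured of 8 progenitor markers summed to 199 and 391 CPM against 612 and 688 CPM, with 1 of 4. Over all genes, 12.3% had an unadjusted p under 0.05 in edgeR's test. Of 7 microglial markers 0 were measured in matched events. After adjustment edgeR called none of these markers. Their part in the hnRNP levels was not tested, and in bulk RNA fewer cells of a type and less RNA per cell cannot be told apart.

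**Figure D5:**
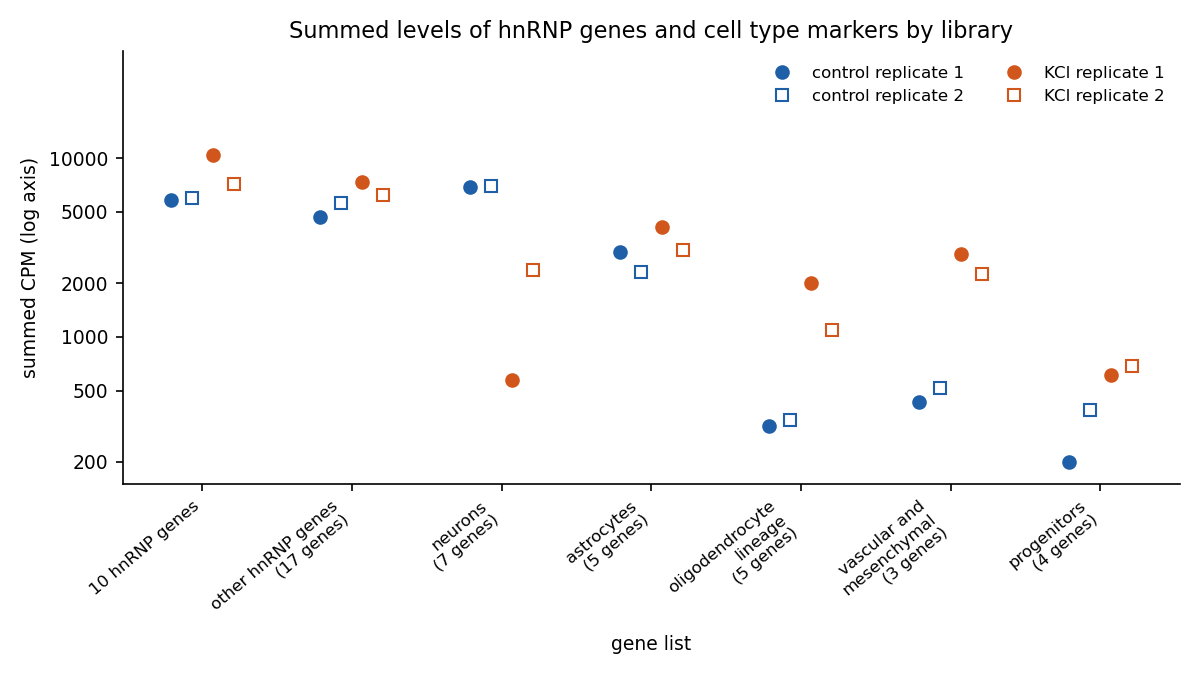
Summed CPM of the 10 hnRNP genes, of the other hnRNP genes measured and of the measured markers of 5 cell types, in each library, on a log axis; blue is control, orange is KCl, filled circles are replicate 1 and open squares replicate 2. The hnRNP sum is highest and the neuronal sum lowest (576 CPM) in KCl replicate 1.

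The wider hnRNP family was measured in 17 of 24 listed genes. Of these, 15 were fitted higher and 2 lower in KCl, with a median log2 fold change of 0.35, and 0 passed edgeR's test or had an unadjusted p under 0.05. Over all genes, 52.5% were fitted higher and 12.3% had such a p. The highest by p were Hnrnpf, a close relative of Hnrnph1 (log2 fold change 0.95, edgeR adjusted p 0.418), and Ptbp1, which binds pyrimidine tracts and is known to be low in neurons (0.90, edgeR adjusted p 0.480). The lower ones were Hnrnpul2 (-0.22, edgeR adjusted p 0.908) and Ptbp2 (-0.27, edgeR adjusted p 0.923), the form of Ptbp that neurons are known to use. Both overlapped between groups. The 17 genes summed to 4689 and 5626 CPM in control and 7376 and 6213 CPM in KCl. Of their 33 tested splicing events edgeR called 0, with 22 fitted higher and 11 lower, against 51.6% higher over all events. At an unadjusted p under 0.05 there was 1, against 9.20% of all events. It was a cassette of 130 bases in Taf15 (edgeR adjusted p 0.445), with shares of 98.3% and 99.7% in control and 100% in both KCl libraries.

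Genes of nonsense-mediated decay, the pathway that removes many misspliced hnRNP transcripts, were measured in 13 of 19. Of these, 8 were fitted higher and 5 lower, with a median log2 fold change of 0.13, and 0 had an unadjusted p under 0.05. The highest by p was Dhx34 (0.87, edgeR adjusted p 0.478) and Rnps1 was among the lower (-0.24, edgeR adjusted p 0.883). Of their 12 tested events 0 passed. Genes for nuclear import, arginine methylation and phosphorylation of splicing proteins were measured in 9 of 13, with 5 fitted higher and 4 lower and a median of 0.29. Clk2 (0.89, edgeR adjusted p 0.692) and Clk1 (0.48, edgeR adjusted p 0.751), kinases of SR proteins, were among the higher, though Clk2 overlapped between groups. Among the lower were Tnpo3 (-0.34), Prmt5 (-0.29) and Clk3 (-0.25), a kinase of the same family. Of the 22 tested events of this list 0 passed.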

How the data were processed

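The authors deposited, for each splicing event, unnormalized read counts of an inclusion and a skipping form, with starts counted from 0, per the file headers; p-values and FDRs of KCl against control within a replicate number were deposited in the same tables. The submitters' processing notes name, without roles, the build mm10 and the tools TopHat2, MACS2, BWA 0.7.12 and CASAVA 1.7; how events were counted and filtered is not given in the sources used here. Here starts count from 1. Without flanking exons, events of equal coordinates cannot be told apart, so an event was matched where its coordinates occur once per table. Effective lengths are not given, so the read share is not a percent spliced in.

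For splicing, edgeR's quasi-likelihood test (edgeR 4.0.16 under R 4.3.3) was fitted over all matched events that averaged 1 read or more for each form, with terms for library, form and form in KCl. For levels, both forms were added per event, or per gene in its best-covered event, scaled by TMM and fitted with an intercept and KCl. The threshold was an adjusted p of 0.05 (Benjamini-Hochberg). Intervals are at 95%. Alternatives were a replicate block, DESeq2 1.42.0, limma 3.58.1 (pseudocount 0.5), other scalings, filters and gene values, and fits that drop 1 library. Python 3.11.15, pandas 2.3.3, scipy 1.17.1 and matplotlib 3.10.9 were also used.

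The members, gene lists and marker lists were chosen with earlier results of these data known. Events given by library were, for each gene, the best covered of those tested for splicing, those with an unadjusted p under 0.05 or an FDR of the authors under 0.05, and those with at least 100 reads in every library and a share between 10% and 90% in at least 1; Hnrnpa1 156, Hnrnpa2b1 36 and 136, Hnrnpd 71, Hnrnph1 139 and Hnrnph3 185 were added after their values were seen. Genes of lists were named by smallest unadjusted p, a few of which are not reported here. Not used were 2 columns of counts that repeat another library and 3 libraries of chromatin from hippocampus.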

Additional observations from a re-analysis of the deposited data

How the results depend on the processing

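No hnRNP event passed the splicing test under any of the alternatives run: the replicate block, DESeq2, limma, no filter, a mean of at least 10 reads of each form, equal coordinates summed, and each library left out. With the replicate number as a replicate block, edgeR called 1 of 30 events by level (Hnrnpa2b1, 136 bases, adjusted p 0.0427) and 3 of 10 genes: Hnrnpa2b1 (log2 fold change 0.81, adjusted p 0.0336), Hnrnph1 (0.86, adjusted p 0.0411) and Hnrnpa1 (0.72, adjusted p 0.0474). All features then gave 11.5% of event levels, 20.9% of genes and 1.66% of splicing events. Libraries of 1 number deviated together (correlation 0.623 over 6117 genes and 0.355 over 3006 events), but what a number stands for is not in the labels, and the 2 numbers were not taken as pairs.

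Leaving out each library gave 19 to 26 of 30 events and 5 to 9 of 10 genes fitted higher in KCl, the lowest counts without KCl replicate 1, and a difference in the share of event reads of 0.193 to 0.558 percentage points, against 0.376 with all 4. Over all rows of each table, an alternative chosen after seeing the data, that difference was 0.261. Of 72 log2 odds ratios with a library left out 17 changed sign, and of 105 under other settings 1 did, that of the Hnrnph3 cassette of 116 bases with limma (-0.39). The ranges with a library left out, for events with a change of sign, were -1.004 to 0.59 (Hnrnpa1 MXE), -0.96 to 0.36 (Hnrnpa1 cassette of 159 bases), -1.64 to 0.20 (Hnrnpc), -0.063 to 0.29 (Hnrnpd, 147 bases), -0.81 to 0.55 (Hnrnpdl, 171 bases), -0.79 to 0.0066 (Hnrnph1 RI of 2895 bases), -0.13 to 0.43 (Hnrnph1 RI of 497 bases), -3.81 to 1.11 (Hnrnph3, 116 bases), -1.79 to 3.72 (Hnrnpm), -0.18 to 0.45 (Hnrnpr A3SS) and -1.07 to 0.45 (Hnrnpr MXE). For genes they were -0.15 to 1.60 (Hnrnpa2b1), -0.11 to 0.76 (Hnrnpc), -0.032 to 0.19 (Hnrnpd), -0.12 to 0.63 (Hnrnpdl), -0.16 to 0.53 (Hnrnpk) and -0.12 to 0.69 (Hnrnpr). The other 7 events kept their sign, at -1.36 to -0.0091 (Hnrnpa2b1, 120 bases), 0.79 to 0.87 (Hnrnpd, 107 bases), 0.36 to 1.65 (Hnrnpdl, 105 bases), -1.17 to -0.25 (Hnrnph1, 50 bases), 0.49 to 1.06 (Hnrnpk A3SS), -1.04 to -0.39 (Hnrnpk, 54 bases) and 0.44 to 0.86 (Hnrnpk, 72 bases). So did 4 genes, at 0.43 to 0.95 (Hnrnpa1), 0.33 to 1.39 (Hnrnph1), 0.53 to 1.02 (Hnrnph3) and 0.048 to 0.41 (Hnrnpm). The cause was not tested. A library left alone in its group was assumed to vary like the other group. Low counts of 1 form limit the events near 0% or 100%.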
